A study of Schizosaccharomyces pombe with 6 samples.

Results

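A group of 7 amino acid permease genes of fission yeast (Schizosaccharomyces pombe), aat1, isp5, per1, cat1, put4, meu22 and SPCC777.04, were examined by RNA-seq, out of 5184 genes in the deposited table. The 7 genes were named as a family with measured values of the H2BK119R and WT libraries in view, that is, they were selected on the fold changes between the genotypes, so their values in this contrast are given as a description and without a test. They were taken from the table by gene symbol or systematic ID, and all 7 were found and passed the filter on low counts, SPCC777.04 only through the mutant libraries.

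The study compared 3 libraries of H2BK119R (mating type h-, with ura4-D18 and the allele htb1-K119R marked by kanMX6), in which the lysine of histone H2B that carries monoubiquitin is arginine, with 3 libraries of WT (mating type h+, with ade6-M216, leu1-32 and ura4-D18). htb1 is the only H2B gene of fission yeast, so the variant is the sole H2B of the mutant cells. RNA of whole cells was sequenced, and neither the medium nor the density of the cultures was stated for this preparation. Both strains lack ura4, whose count was 0 in all 6 libraries, whereas the mating type, the kanMX6 marker and the adenine and leucine requirements differ along with the H2B allele, and these cannot be told apart here. Only 1 strain represented each genotype. The transcripts of htb1, ade6 and leu1 were not called, with log2 fold changes of -0.26, -0.01 and -0.48.

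Amino acid permeases of the plasma membrane take up amino acids, most often together with protons, and yeast cells select which of them to make and where to keep them according to the nitrogen source. In fission yeast the TOR kinases and the Tsc1-Tsc2 complex act on this choice. Poor nitrogen turns on transcription of permease genes, in part through the GATA-type zinc finger factor Gaf1, and the ubiquitin ligase Pub1 with its arrestin-like adaptor Any1 decides whether Aat1 is held in the Golgi or sent to the cell surface. Monoubiquitin on H2B is placed in the bodies of transcribed genes by Brl1 and Brl2 with the conjugating enzyme Rhp6.

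The regions before the genes are shown first because they differ among the members in a way the choice of the genes did not use. In the ASM294v3 genome, 5 of the 7 members, or 71.4%, held the letters GATAAG on either strand within the 250 bases before the annotated gene start, against 10.2% of 5112 protein-coding genes. GATAAG is the core recognised by GATA factors. The 5 are isp5, per1, put4, meu22 and SPCC777.04, while aat1 and cat1 held none. No match says only that these letters are not in this window. In the sequences, read 5' to 3' along the coding strand of each gene, capitals mark GATAAG or its reverse complement CTTATC. The full windows of isp5 and aat1 are given because these genes had the largest fold changes in the 2 directions among the members counted in both genotypes, and for the others a window of up to 30 bases around each match.
isp5, chrI:5466507-5466756, plus strand: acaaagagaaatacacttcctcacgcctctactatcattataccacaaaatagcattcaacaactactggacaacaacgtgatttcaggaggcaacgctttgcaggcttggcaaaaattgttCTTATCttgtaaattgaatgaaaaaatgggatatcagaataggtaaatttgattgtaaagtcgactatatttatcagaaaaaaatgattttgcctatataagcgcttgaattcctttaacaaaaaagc
aat1, chrII:113366-113615, minus strand: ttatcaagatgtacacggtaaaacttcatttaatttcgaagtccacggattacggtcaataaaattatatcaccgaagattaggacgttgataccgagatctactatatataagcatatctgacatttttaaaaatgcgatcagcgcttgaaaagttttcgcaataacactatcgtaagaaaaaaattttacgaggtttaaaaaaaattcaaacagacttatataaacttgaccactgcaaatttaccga
per1, chrI:3749327-3749356, plus strand: cgtttttaatttCTTATCcgtcctcttatt
put4, chrI:5492914-5492941, plus strand: ggtgctggctGATAAGagctttgtctca
put4, chrI:5493024-5493053, plus strand: tccggaatactgCTTATCgttggccgccgc
meu22, chrII:3242833-3242862, minus strand: ggggctctgtggCTTATCttgaatgcttgt
SPCC777.04, chrIII:1602763-1602792, plus strand: aattgataaacaGATAAGtaaaggatattc

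The first base of the match lay 128 bases before the start of isp5, 102 before that of per1, 240 and 128 before that of put4, 115 before that of meu22 and 179 before that of SPCC777.04, whose annotated start is the coding start. The matches thus stood before isp5, per1 and SPCC777.04, the 3 members with higher values in the mutant, before put4, 1 of the 3 with lower values, and before meu22, whose genotypes overlapped. Since the genes were chosen on these fold changes, nothing is read from this about the motif and direction, and a link was not tested. Among the 23 other amino acid transporter genes 5 held the motif (21.7%), and among the 6 of these that act in the vacuole 3 did (50%). Of 9 genes for the uptake of other nitrogen sources 3 held it (33.3%). Among genes called higher in H2BK119R 12.1% did, and among genes called lower 15.4%. A further pair of motifs were searched on both strands, and none of the matches in the members overlapped a match of another motif. TGACTC, the core bound by bZIP factors of the Gcn4 type, stood before meu22 only, against 5.63% of all genes. TATAAA stood before aat1, 29 bases from its start, and before SPCC777.04, against 44.4% of all genes.

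Library totals lay between 15987167 and 20701391 counts. Median counts per gene were 253, 274.5 and 514.5 in WT replicates 1, 2 and 3, beside 440, 355 and 387.5 in H2BK119R. A gene was called when its p in edgeR's quasi-likelihood test, adjusted by Benjamini-Hochberg, was below 0.05 and the change exceeded 2-fold, and this called 415 of 4969 tested genes (8.35%), of which 234 were higher (4.71%) and 181 lower (3.64%) in H2BK119R. The adjusted p alone was below 0.05 for 37.9% of genes, and the libraries of the genotypes did not overlap for 48.8%. Long genes tended to be higher in the mutant: the median log2 fold change was 0.30 in the longest of 5 equal classes of annotated gene length and -0.28 in the shortest. With library totals in place of TMM (the trimmed mean scaling used here) the median over all genes moved to 0.15, against -0.01, and the calls became 298 higher and 108 lower. The TMM factors of replicates 1, 2 and 3 were 0.82, 0.86 and 1.17 in WT and 1.13, 1.01 and 1.06 in H2BK119R. WT replicate 3 thus stood apart from the other WT libraries.

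Of the 7 permease genes, 3 lay past the thresholds set for all genes, isp5 and SPCC777.04 on the higher and aat1 on the lower side in H2BK119R, and per1, cat1, put4 and meu22 did not. Since the genes were chosen on this contrast, and SPCC777.04 entered the fit only through the libraries in which it is high, this count is a description and not a test, and nothing is read from it. Set against the median of genes in the same length class, the log2 fold change was 2.32 for isp5, -2.74 for aat1 and -0.38 for meu22, the longest of the 7.

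aat1 (SPBC359.03c, ASM294v3 chromosome II, 111007 to 113365, minus strand) encodes the permease whose sorting between Golgi and cell surface is described above. It was counted 268, 192 and 203 times in H2BK119R replicates 1, 2 and 3, against 1120, 958 and 1494 times in WT. Per length of transcript this gave 5.76, 4.31 and 4.50 FPKM in H2BK119R and 28.4, 24.1 and 29.3 FPKM in WT. Every mutant library was low and the groups lay far apart. The authors had reported aat1 as lower in this mutant, also by quantitative PCR, with less tagged Aat1 protein and less RNA polymerase II at the gene. In RNA of whole cultures, fewer cells with a transcript and less of it per cell cannot be told apart. The log2 fold change was -2.68 (SE 0.147), from 11.2 ± 1.20 CPM in H2BK119R and 71.8 ± 11.96 CPM in WT (SD, n = 3 each, TMM-scaled CPM), and it lay between -2.78 and -2.27 under every other setting and with any library left out.

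isp5 (SPAC1039.09, chromosome I, 5466757 to 5468649, plus strand) was first isolated among genes induced during sexual differentiation, and its transcript is known to rise when nitrogen is poor. Its counts were 2606, 2389 and 2006 in H2BK119R, against 416, 303 and 477 in WT, or 42.2, 40.4 and 33.5 FPKM in H2BK119R and 7.95, 5.73 and 7.04 FPKM in WT. All 3 mutant libraries were high. The log2 fold change was 2.30 (SE 0.174), with 119.1 ± 14.1 CPM in H2BK119R and 24.3 ± 6.35 CPM in WT (SD, n = 3 each), and 2.16 to 2.52 under the other settings and with any library left out. isp5 is the member whose annotated span no other annotated gene overlaps.

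SPCC777.04 (chromosome III, 1602954 to 1604750, plus strand), which RefSeq names dip5 after the dicarboxylic amino acid permease of budding yeast, was counted 59, 65 and 67 times in H2BK119R and 0 times in each of the 3 WT libraries. The mutant level was low all the same, at 1.75, 1.99 and 2.04 FPKM. Against a floor of 3 counts per WT library (0.189 CPM on average), the 3.27 ± 0.431 CPM of H2BK119R (SD, n = 3) were at least 17.3-fold higher. A count of 0 with at least 10 counts in every library of the other genotype was rare in this table. In this direction SPCC777.04 shared it with mde7, a gene named for its dependence on the meiotic factor Mei4, and in the opposite direction SPAC922.06, a predicted reductase gene beside cat1 and put4, was the single case, with counts of 0 in every H2BK119R library and 78, 91 and 143 in WT.

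The reads of SPCC777.04 need a reservation, because 91.8% of its annotated span is covered by SPCC777.03c on the opposite strand, and whether counting used strand was not stated. SPCC777.03c was counted 459, 400 and 484 times in H2BK119R, against 190, 177 and 285 times in WT, a log2 fold change of 0.82 (Benjamini-Hochberg adjusted p = 0.000874 in edgeR's quasi-likelihood test), and was not called. The permease gene took between 11.4% and 14.0% of the counts of the pair in H2BK119R and 0% in WT. The 2 genes together had 24.3 to 28.5 CPM in H2BK119R and 11.8 to 14.4 CPM in WT, so the pair as a whole was higher in each mutant library. How the reads of the pair were divided was not tested. Other members are overlapped on the opposite strand by annotated non-coding RNA genes that have no counts of their own. The largest such overlap covers 38.8% of aat1, 44.9% of per1, 80.8% of cat1 and 82.1% of put4. Whether reads of these RNAs were counted to the permease genes was not tested either.

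per1 (SPAP7G5.06, chromosome I, 3749441 to 3751729, plus strand), a predicted plasma membrane permease, had 8.36, 7.53 and 6.60 FPKM in H2BK119R and 4.94, 4.56 and 5.48 FPKM in WT. The groups did not overlap, yet the gap was small. The log2 fold change was 0.41 (SE 0.138), below 2-fold.

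cat1 (SPAC869.11, chromosome I, 5489134 to 5491476, minus strand), the cationic amino acid transporter through which arginine enters, and put4 (SPAC869.10c, chromosome I, 5493164 to 5495156, plus strand), named after the proline permease of budding yeast, are divergent neighbours and the most abundant members in WT. cat1 had 78.7, 65.5 and 68.9 FPKM in H2BK119R and 89.4, 88.3 and 93.6 FPKM in WT, with a log2 fold change of -0.54 (SE 0.128). put4 had 46.5, 42.9 and 34.5 FPKM in H2BK119R and 59.8, 50.3 and 51.3 FPKM in WT, with a log2 fold change of -0.58 (SE 0.173). Both were lower in every mutant library than in any WT library, and neither reached 2-fold.

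meu22 (SPBC19F8.06c, chromosome II, 3239038 to 3242735, minus strand) takes its name from meiotic expression upregulated. Its level was 2.55, 2.69 and 2.44 FPKM in H2BK119R and 2.17, 2.13 and 2.99 FPKM in WT. In FPKM, WT replicate 3 stood above all other libraries and WT replicates 1 and 2 below them. In TMM-scaled CPM this order was not kept, with 8.56, 10.1 and 8.73 CPM in H2BK119R and 9.94, 9.33 and 9.66 CPM in WT. The log2 fold change was -0.08 (SE 0.145) and turned to 0.09 with limma on log2(FPKM + 0.1), so no direction can be given. The opposite-strand gene SPBC19F8.05 covers 75.5% of its span.

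**Figure D1:**
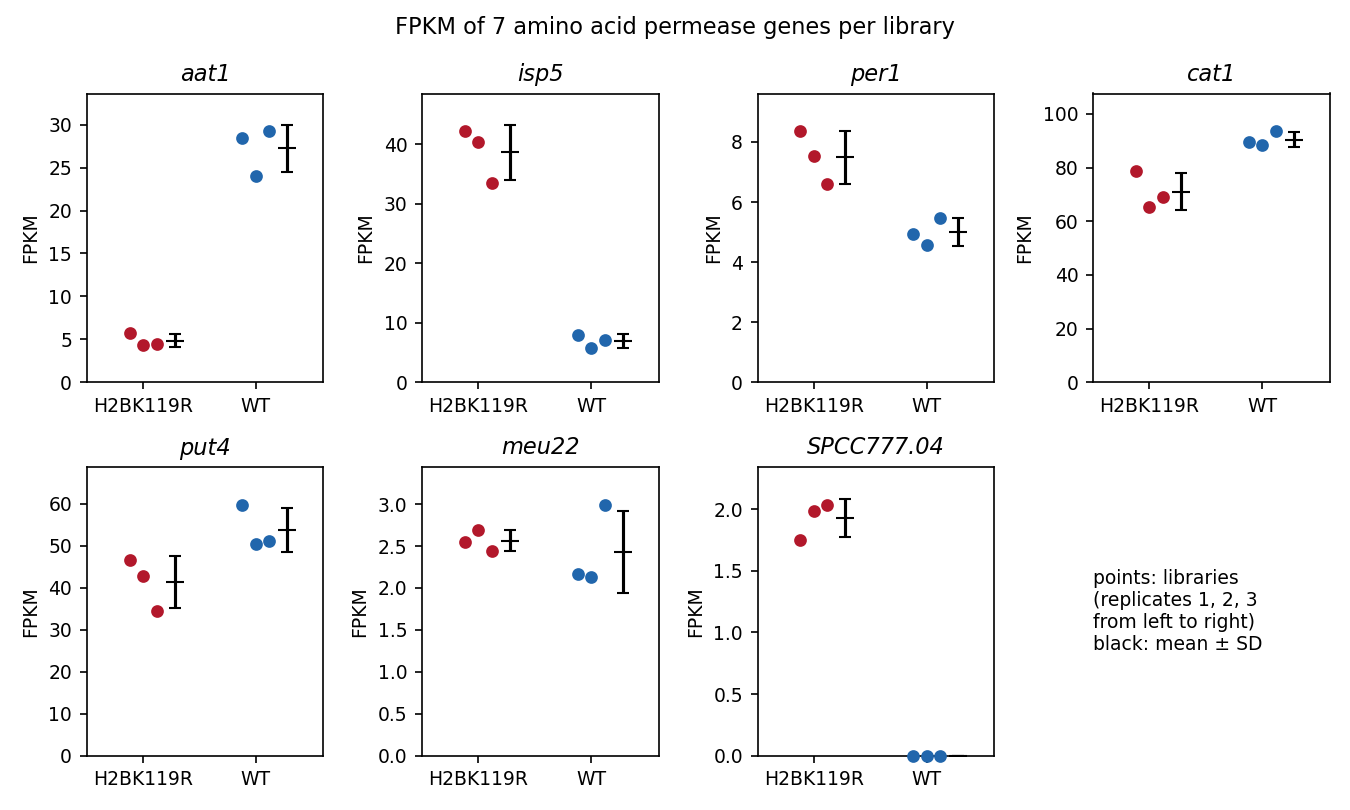
FPKM (deposited values, linear axes from 0) of each permease gene, with H2BK119R libraries in red on the left, WT libraries in blue on the right, and mean ± SD of 3 libraries in black. aat1 lies at 4.31 to 5.76 FPKM in H2BK119R and 24.1 to 29.3 FPKM in WT, isp5 shows the opposite picture, and SPCC777.04 is at 0 in WT.

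On the FPKM scale, which divides by transcript length, the levels can be set in order. In H2BK119R the order of the means was cat1, put4, isp5, per1, aat1, meu22 and SPCC777.04, and put4 and isp5 were the only neighbours whose libraries overlapped. In WT it was cat1, put4, aat1, isp5, per1 and meu22, with SPCC777.04 at 0, and no neighbours overlapped. aat1 and isp5 thus changed places, while cat1 stayed on top. The ratio of isp5 to aat1 within a library needs no scaling between libraries. It was 7.33, 9.37 and 7.44 in H2BK119R and 0.280, 0.238 and 0.241 in WT.

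The sum over the 7 genes was 186, 165 and 152 FPKM in H2BK119R and 193, 175 and 190 FPKM in WT, so the totals overlapped while their makeup did not. isp5 made up 21.9% to 24.4% of the sum in H2BK119R and 3.27% to 4.13% in WT. aat1 made up 2.61% to 3.10% in H2BK119R and 13.7% to 15.4% in WT. cat1 and put4 together held the major share in both genotypes, 65.6% to 67.8% in H2BK119R and 76.4% to 79.2% in WT.

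**Figure D2:**
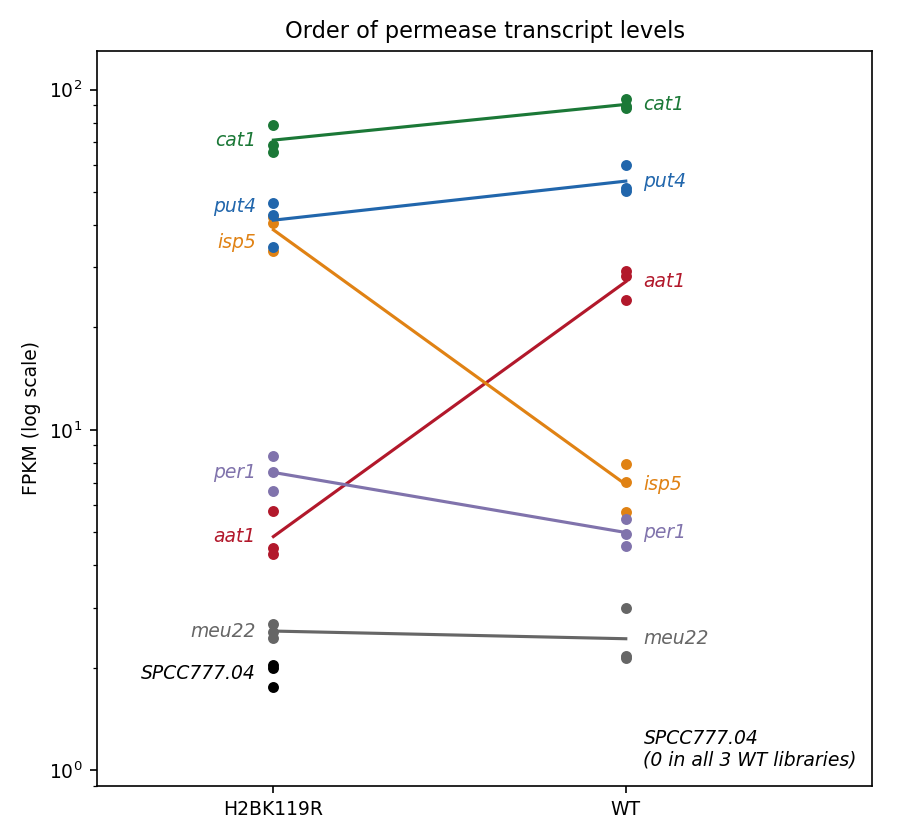
FPKM (log axis) of the 7 genes in H2BK119R (left) and WT (right), each point a library and each line joining the 2 genotype means of a gene. The lines of isp5 and aat1 cross, with isp5 at 33.5 to 42.2 FPKM in H2BK119R and 5.73 to 7.95 FPKM in WT.

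The members are related to different degrees. Over 21 pairs, the identity of the aligned annotated proteins ranged from 32.4% to 79.9% with a median of 38.6%. aat1, cat1 and per1 form the closest group, at 79.9% between Aat1 and Cat1, 75.5% between Per1 and Cat1 and 70.9% between Aat1 and Per1. These 3 genes did not move alike, with log2 fold changes of -2.68, -0.54 and 0.41. The closest relative of Aat1 was the product of SPBC359.01, a predicted transporter gene that lies 3.79 kb from it on chromosome II, beyond alr2, at 80.3%. Their coding sequences matched at 84.4% of bases over 83.9% of aat1, and no member had a copy of 95% identity or more.

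SPBC359.01 is not one of the 7 members, although the gene lists too were drawn up with earlier results known, and its values come from the fit across all genes. It had 1.502, 0.974 and 1.40 FPKM in H2BK119R and 5.05, 6.11 and 8.60 FPKM in WT, all 3 mutant libraries being lower, and the log2 fold change was -2.50 (SE 0.173, Benjamini-Hochberg adjusted p = 4.6e-06 in edgeR's quasi-likelihood test). The aat1 locus held further genes that fell. alr2, encoding a predicted alanine racemase, was counted 30, 27 and 31 times in H2BK119R, against 640, 548 and 870 times in WT (log2 fold change -4.78, SE 0.176). pfl7, encoding a cell surface glycoprotein, was counted 4, 1 and 6 times in H2BK119R, against 77, 111 and 183 times in WT (log2 fold change -5.21, SE 0.365). Of the 3 nearest tabulated genes on each side of aat1, 5 were called lower. The others of these were SPBPB10D8.07c, a predicted transporter gene (-1.42), and mug14 (-1.64), and abc3, an ABC transporter gene, was at -0.80 and passed the adjusted p without the fold. With any library left out, these 5 calls were kept.

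Around isp5 1 of 6 neighbours was called. mmf2, the next gene downstream, which encodes a predicted protein of isoleucine synthesis, had 15.4, 16.3 and 12.2 FPKM in H2BK119R and 3.96, 3.10 and 3.94 FPKM in WT, with a log2 fold change of 1.84 (SE 0.198, Benjamini-Hochberg adjusted p = 7.4e-05 in edgeR's quasi-likelihood test). gto1 was at -0.34, and SPAC1039.06, SPAC1039.07c, SPAC1039.08 and SPAC922.03 lay between 0.13 and 0.29. Beside cat1 and put4, SPAC922.06 was at least 39.9-fold lower in H2BK119R (floor of 3 counts per library, 6.12 ± 0.358 CPM in WT) and pcm2, a predicted protein repair methyltransferase gene, was called lower (-1.97), whereas SPAC922.05c (0.47) and atd2 (-0.71) were not called and SPAC869.09 and mel1 were too low to be tested. On the side before per1, lys1 (-1.16) and rpl1002 (-1.002) were called lower, and prm1 (0.70) was not. The nearest tabulated genes on its other side, emc5 (-0.77), rad50 (0.81) and sdh1 (0.15), lay 39.2 kb, 40.02 kb and 44.6 kb away and were not called. lys1 was lost without WT replicate 3 (-0.80) and also with library totals or limma, and rpl1002 was lost without H2BK119R replicate 1 (-0.92), WT replicate 1 (-0.81) or WT replicate 2 (-0.93).

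No neighbour of meu22 or SPCC777.04 was called. Around meu22, yap18 (-0.18), lcl3 (-0.67), SPBC19F8.05 (-0.28), mcs6 (-0.40), rps401 (-0.55) and gga22 (0.09) were within 2-fold, and lcl3 and mcs6 passed the adjusted p alone. Around SPCC777.04, fmd3 (0.00), SPCC777.02 (-0.35), gtr2 (-0.06), SPCC777.06c (-0.37) and omh3 (0.27) were within 2-fold as well, as was SPCC777.03c (0.82), and of these SPCC777.03c and SPCC777.06c passed the adjusted p alone. In all, 10 of 34 tested neighbours were called, 1 higher and 9 lower, or 29.4%, beside 8.35% of all genes. More of these calls stood around aat1 than around any other member. Since the members were chosen on this contrast, the share is a description and not a test. The median over the neighbours was -0.35, beside -0.01 over all genes. aat1, isp5, cat1 and put4 lie within 120 kb of a chromosome end.

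**Figure D3:**
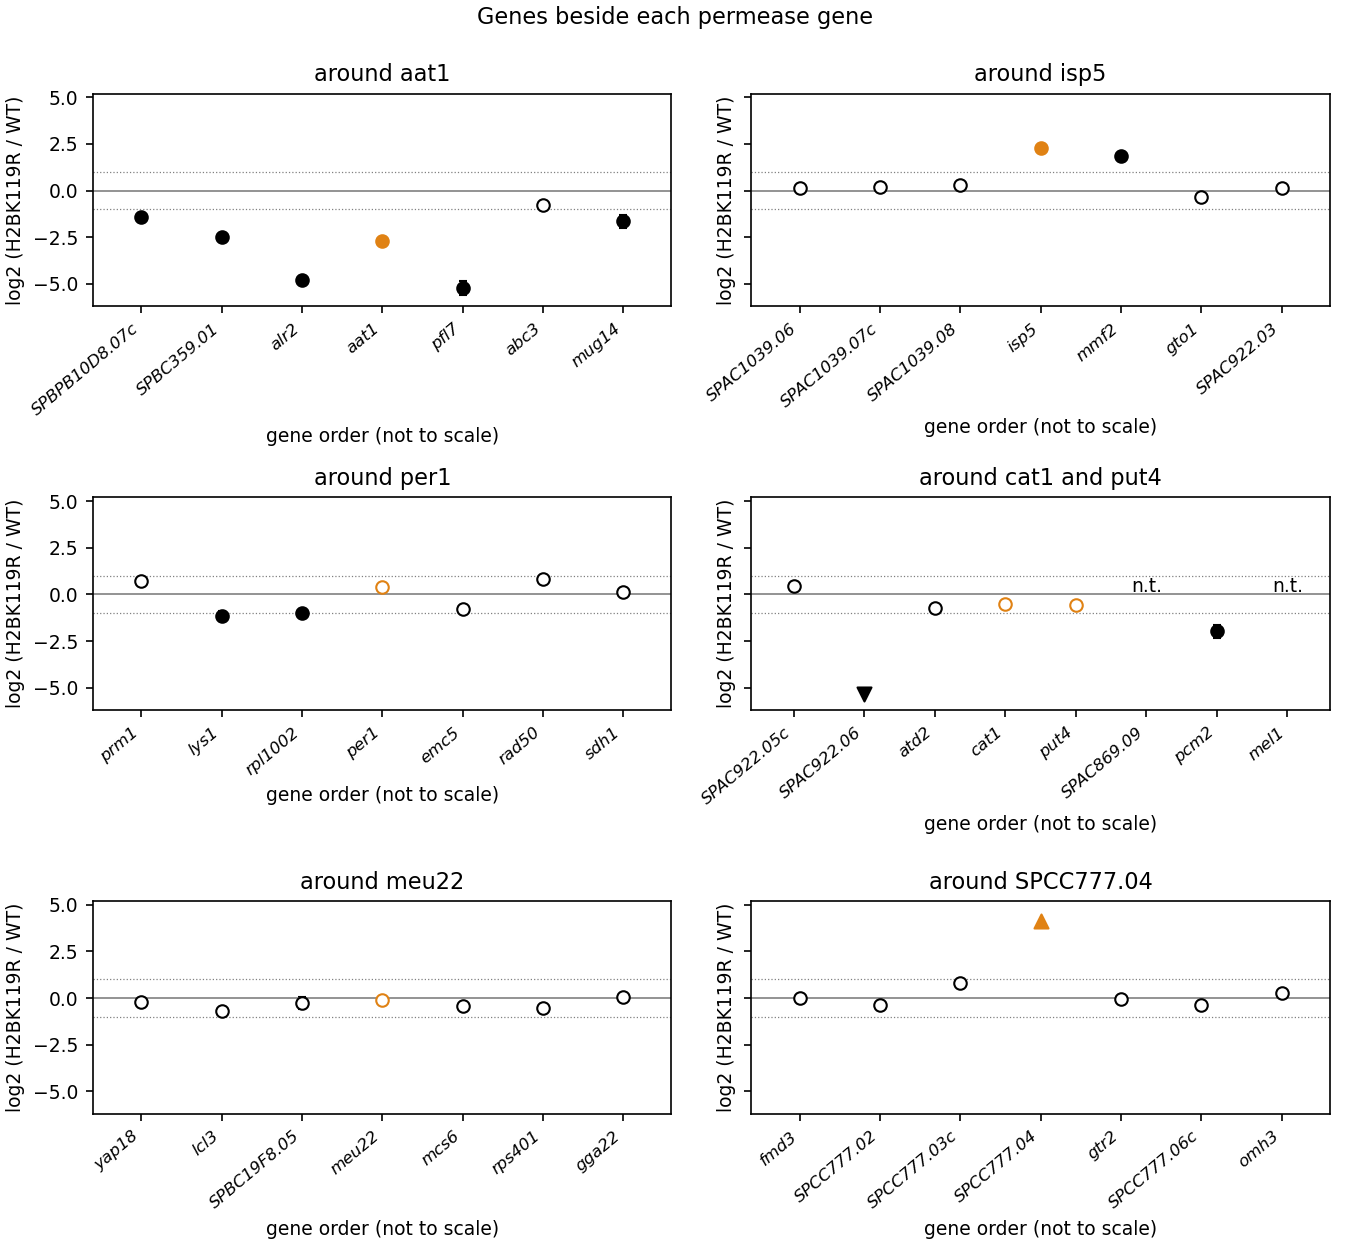
Log2 fold changes (H2BK119R over WT, with SE) of the permease genes in orange and of the 3 nearest tabulated genes on each side in black, in gene order. Filled points were called, open points were not, triangles are bounds against a floor of 3 counts per library, n.t. marks genes not tested, and dotted lines mark 2-fold. The genes around aat1 all lie below 0, and mmf2 beside isp5 is the single called neighbour above it.

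A list of 23 further genes, all tested, was formed by deposited descriptions or GO terms that name amino acid transport, and it includes SPAC6G10.06 (log2 fold change 0.13, not called), described as an amino acid oxidase that acts in endosome to Golgi transport. Of these, 1 was called higher and 1 lower, 8.7% in all beside 8.35% of all genes, and their median log2 fold change was -0.17 beside -0.01. The lower one was SPBC359.01. The higher one was SPAC1039.01, a predicted permease gene, with 6.72, 6.01 and 5.07 FPKM in H2BK119R and 3.59, 1.76 and 2.26 FPKM in WT and a log2 fold change of 1.03 (SE 0.272, Benjamini-Hochberg adjusted p = 0.0135 in edgeR's quasi-likelihood test). This call was lost without H2BK119R replicate 1 (0.98) or 2 (0.96) and without WT replicate 2 (0.87) or 3 (0.81). By the adjusted p alone 2 were higher and 9 lower, beside 924 higher and 958 lower (37.9%) of the 4969 genes. None of 6 transporter genes of the vacuole, which store and release amino acids, was called, and all 6 are among the 23. By the adjusted p alone fnx2 was higher (0.41) and stm1, described as a G-protein coupled receptor, lower (-0.77). Both are already counted above.

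Of 9 genes for the uptake of other nitrogen sources, 2 were called lower (22.2%) and none higher, beside 3.64% of all genes called lower. This list was drawn up with earlier results known, and the authors had reported SPBC887.17, like aat1, as lower in this mutant. The share is therefore a description and not a test. SPBC887.17, a predicted transmembrane transporter gene, had 36.7, 32.6 and 33.8 FPKM in H2BK119R and 73.3, 70.2 and 72.4 FPKM in WT (log2 fold change -1.26, SE 0.135). fur4, the uracil permease gene, had 55.1, 52.1 and 51.6 FPKM in H2BK119R and 118, 105 and 93.0 FPKM in WT (log2 fold change -1.20, SE 0.183). Both strains are ura4-D18 and need uracil. The paper infers that SPBC887.17 transports guanine and adenine. WT carries ade6-M216 and H2BK119R does not, so here the adenine requirement and the H2B allele cannot be told apart. Of the ammonium transporter genes, amt1 passed the adjusted p at 0.58 without reaching 2-fold, and amt2 (-0.23) and amt3 (0.23) did not pass.

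Of 18 tested genes that act on permease transcription, TOR signalling or permease sorting, 2 were called, both higher (11.1%), beside 8.35% of all genes called and 4.71% called higher. tsc1 (hamartin) had 5.85, 6.28 and 6.49 FPKM in H2BK119R and 1.37, 1.63 and 2.23 FPKM in WT (log2 fold change 1.68, SE 0.137, and Benjamini-Hochberg adjusted p = 1.3e-05 in edgeR's quasi-likelihood test). tsc2 (tuberin), which forms the complex with Tsc1 that restrains the GTPase Rhb1, had 6.05, 5.03 and 5.43 FPKM in H2BK119R and 1.44, 1.74 and 2.25 FPKM in WT (log2 fold change 1.44, SE 0.126, and Benjamini-Hochberg adjusted p = 2.0e-05 in edgeR's quasi-likelihood test). Both subunits were thus higher in every mutant library, while rhb1 was at 0.05. By the adjusted p alone 7 of the 18 were higher and 1 lower, beside 924 higher and 958 lower (37.9%) of the 4969 genes. The median over the 18 was 0.41, beside -0.01 over all genes. This list too was drawn up with earlier results known, so its shares and median are a description and not a test. The kinase genes tor2 (0.89) and tor1 (0.69) and the ligase gene pub2 (0.88) were among the 7, pub1 (0.45) and any1 (-0.06) were not, and gaf1 was the lower one (-0.31). Among the 18, 12 belonged to the longest class of genes, whose median was 0.30. Set against the median of the same length class, tsc1 was at 1.38, tsc2 1.14, tor2 0.59, tor1 0.39 and pub2 0.82. On the same scale rhb1 was at 0.32, pub1 0.15, any1 -0.13 and gaf1 -0.61. The part of gene length in the values of this list was not tested.

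**Figure D4:**
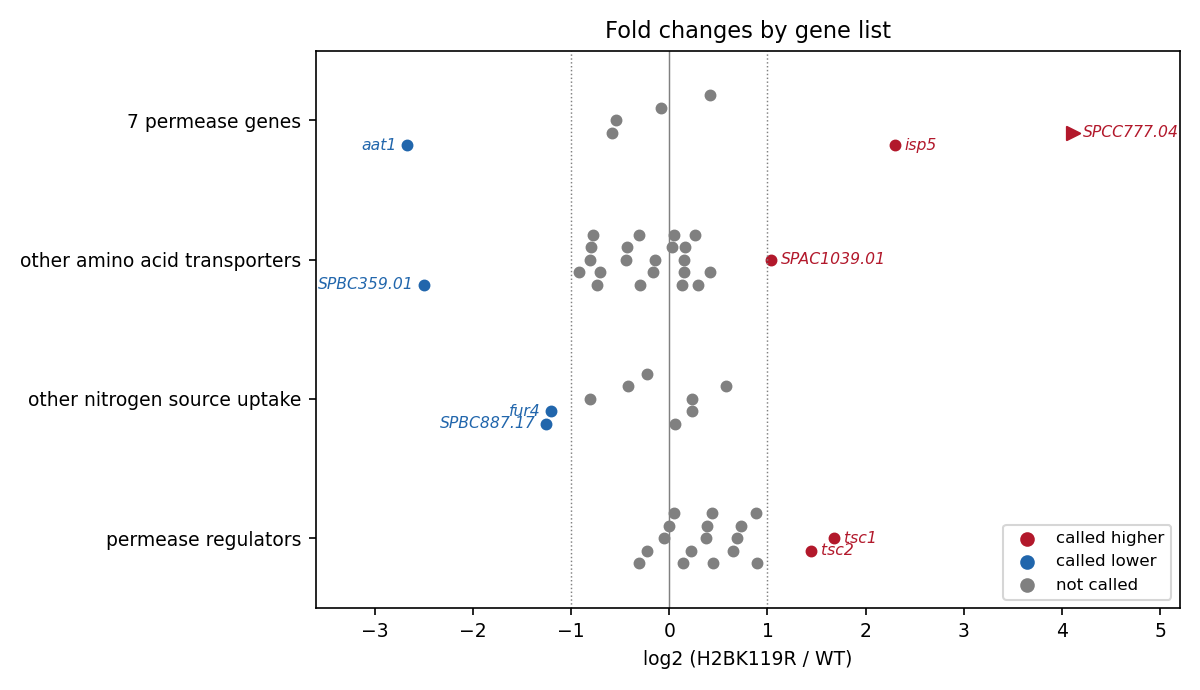
Log2 fold changes (H2BK119R over WT) of the 7 permease genes and of 3 gene lists, each point a gene and its height within a row only for legibility. Red points were called higher, blue lower and grey not called, the triangle is a bound, and dotted lines mark 2-fold. tsc1 and tsc2 stand at 1.68 and 1.44, and most other transporter genes lie within 2-fold.

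Over the 6 libraries, the genes of mean FPKM of at least 1 whose log2 CPM followed aat1 most closely were hmo1 (Pearson r = 0.999), an HMG box protein gene, sec11 (0.998), SPAC1039.04 (0.997), SPAC11D3.06 (0.997) and coq4 (0.997). Their own log2 fold changes were -0.70, -0.96, -0.95, -2.79 and -0.55, so a like pattern came with a smaller change in all but SPAC11D3.06. For SPCC777.04 they were cut4, orc4, rad2, the assembled transcript MSTRG.4284 and hrp1. For isp5, looked at after its values were seen, they were SPAC4H3.08, its neighbour mmf2, tho2, arp6 and SPAC23C11.01. These are descriptions, since all points share 2 genotypes and 6 libraries.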

How the data were processed

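RNA-seq of 3 H2BK119R and 3 WT libraries was analyzed, grouped by the genotype in the labels. The authors enriched mRNA with oligo(dT), removed rRNA reads, and mapped with HISAT2 to the Ensembl release 45 genome. The authors deposited raw counts of each gene in each library, and FPKM values from StringTie. Fold changes and p-values of the authors' own comparison in the table were not used, nor were 12 further columns of per-sample values. The test was that of edgeR 4.0.16 under R 4.3.3 (TMM, filterByExpr, genotype as the only factor, quasi-likelihood test, Benjamini-Hochberg adjustment over 4969 genes), which was tested on simulated data. The methods call the 3 libraries of a genotype independent biological repeats. Floors cover counting error only. The table holds no coordinates. Positions and promoters come from RefSeq's ASM294v3 (5105 IDs matched), and the assembly behind the authors' mapping was not named. Annotated coding sequences were translated and aligned with Biopython 1.88 and compared with BLAST 2.17.0. Named genes are the members, strain markers, called list genes with up to 3 abundant others, the neighbours and the 5 genes most alike. Members and lists were chosen with earlier results of these data known. vba2 and fil1, from the lists of vacuolar transporters and regulators, matched no row. Alternatives were RLE, library totals, no filter, a minimum of 10 counts, DESeq2 1.42.0, a replicate block, limma 3.58.1 on log2(FPKM + 1 or + 0.1), and leaving out each library.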

Additional observations from a re-analysis of the deposited data

How the results depend on the processing

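The call of every permease gene was the same under each alternative in which the gene was fitted. SPCC777.04 could not be fitted with a minimum of 10 counts in every library or with limma at a mean FPKM of at least 1, which left 2 called genes, and 3 were called with each library left out. The log2 fold changes of aat1 under limma were -2.27 (pseudocount 1) and -2.47 (0.1), those of per1 0.59 with library totals and 0.57 with limma (0.1), those of cat1 -0.35 with either, and those of meu22 0.07 with library totals, 0.06 and 0.09 with limma and -0.18 without H2BK119R replicate 2. Of 90 values of single genes 76 moved by less than 1 SD of the replicates and 14 by more, and no called gene changed direction. Over all genes limma with pseudocount 1 called 249 (251 without a filter) in place of 415, 183 higher and 66 lower, and library totals called 298 higher and 108 lower. Leaving out each library gave 393 calls (without WT replicate 2) to 505 (without WT replicate 3). Other transporter calls were 1 under limma with pseudocount 1, and 1 to 2 with each library left out. fur4 fell just under 2-fold with library totals and limma, leaving 1 nitrogen uptake call. tor2 and pub2 joined the regulators, giving 4 calls, with library totals and limma (0.1), and regulator calls were 2 to 3 with each library left out. A minimum of 10 counts left 6 called neighbours, since pfl7, SPAC922.06 and pcm2 were not fitted and rpl1002 fell below 2-fold. Library totals left 8 and limma 7 or 8, without lys1 and rpl1002 and, at pseudocount 1, without pcm2 (-0.84). Same-numbered libraries correlated at -0.23, 0.36 and 0.30 in their deviations from the group means. Differently numbered ones correlated at -0.51 to 0.37. With so few libraries these values cannot decide whether the numbers pair the samples. With the replicate number as a block 417 genes and 3 permease genes were called, and of the neighbours rpl1002 lost its call (9 called). For SPCC777.04 the depth allows only a bound, as 3 counts correspond to 0.124 to 0.228 CPM in the WT libraries.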
